A study of Mus musculus with 11 samples.

Results

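The inflammasome set comprised 9 mouse genes, taken by symbol with no threshold on their values, out of 38406 genes in the deposited table of normalized counts. They were the sensor Nlrp3, the adaptor Pycard, the inflammatory caspases Casp1, Casp4 and Casp12, and the gasdermins Gsdmd, Gsdma, Gsdmc and Gsdmc2. RNA came from the back skin of imiquimod-treated mice, 6 Trex2 KO (Trex2-/-, replicates 7 to 12) and 5 WT (replicates 2 to 6). All were female C57BL/6 mice aged 8 to 10 weeks, shaved and then given 125 mg of 5% imiquimod cream a day for 4 days, and skin was taken 24 h after the last dose. Imiquimod is a TLR7 agonist whose cream produces psoriasis-like inflammation in mouse skin. Trex2 encodes an exonuclease that degrades DNA from its 3′ end and is best known from keratinocytes, and the labels give the genotype as Trex2-/- and name no driver that limits the loss to a cell type. No untreated skin was analysed here, so every value compares the genotypes within treated skin.

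An inflammasome is a cytosolic complex in which a sensor such as NLRP3 recruits the adaptor ASC, the product of Pycard, and ASC recruits caspase-1. Active caspase-1 matures interleukin-1β and interleukin-18 and cleaves gasdermin D, whose freed amino-terminal part forms pores in the plasma membrane. Casp4 is the table's symbol for mouse caspase-11, which senses cytosolic lipopolysaccharide and cleaves gasdermin D without that complex. Myeloid cells are the best known source of this machinery, whereas gasdermins A and C are known mainly from epithelia, the epidermis among them. Cleavage and pore formation act on proteins, so transcript levels do not measure them.

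Trex2 had 1.85 ± 0.91 normalized counts in Trex2 KO skin and 1480 ± 446 in WT skin (SD, n = 6 and 5), so the targeted transcript matched the labels. Counted reads per library spanned 3125366 to 15557862 in Trex2 KO and 1208896 to 5853454 in WT. A normalized count is a read count divided by 1 size factor per library, and 3 reads, taken as the limit of detection, were worth 1.04 to 13.5 normalized counts. The labels call the samples biological replicates and name no batch, so the p-values measure the spread between these 11 mice. Genes with a mean of at least 10 normalized counts were tested with limma on log2(normalized count + 1), with Benjamini-Hochberg adjustment over all 13215 of them and a threshold of 0.05. A log2 fold change here is Trex2 KO over WT on that scale.

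None of the 8 tested members passed the adjusted threshold, which 2 of 13215 genes (0.0151%) did. Gsdmc2, the ninth, was too low to be tested. The members leaned 2 ways. Casp1, Casp4, Casp12, Gsdmd and Nlrp3 had lower means in Trex2 KO skin, Gsdma and Gsdmc had higher means, and Pycard was nearly level. At an unadjusted p under 0.05, 5 of 8 members stood apart, against 24.4% of all genes tested. Of these, Casp4, Casp12 and Gsdmd were lower (3 of 8 members, against 11.5% of genes), and Gsdma and Gsdmc were higher (2 of 8, against 12.9%). edgeR and DESeq2 on reads recovered from the table also called 0 of 8 members at an adjusted p of 0.05, against 0.0303% and 4.67% of all genes. At an unadjusted p under 0.05 each gave 5 of 8 members, against 22.9% of all genes with edgeR and 23.7% with DESeq2. In limma with log10 depth as a covariate it was 0 of 8, against 4.07% of all genes. Depth ran higher in Trex2 KO, so that fit separates depth from genotype poorly. Its log2 fold changes were −0.64 for Casp4, −0.57 for Casp12, −0.49 for Gsdmd, 0.55 for Gsdma and 2.20 for Gsdmc. They were −0.21 for Casp1, −0.12 for Nlrp3 and 0.23 for Pycard. Without Trex2 KO replicates 9 and 12, 0 of 8 members had an unadjusted p under 0.05, against 12.5% of all genes. These 2 libraries were the most extreme of their group for Casp4, Gsdmd, Nlrp3, Gsdma and Gsdmc, in the direction of each difference. Leaving them out therefore had to shrink those differences, here and in the fold changes given below. No pair of WT libraries was left out likewise. The groups overlapped for every member, whereas they did not overlap for 2.32% of all genes tested. Over the members the median log2 fold change was −0.39, beside 0.01 over all genes tested. In whole skin, fewer cells of a type and less RNA per cell cannot be told apart in any of these values.

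**Figure D1:**
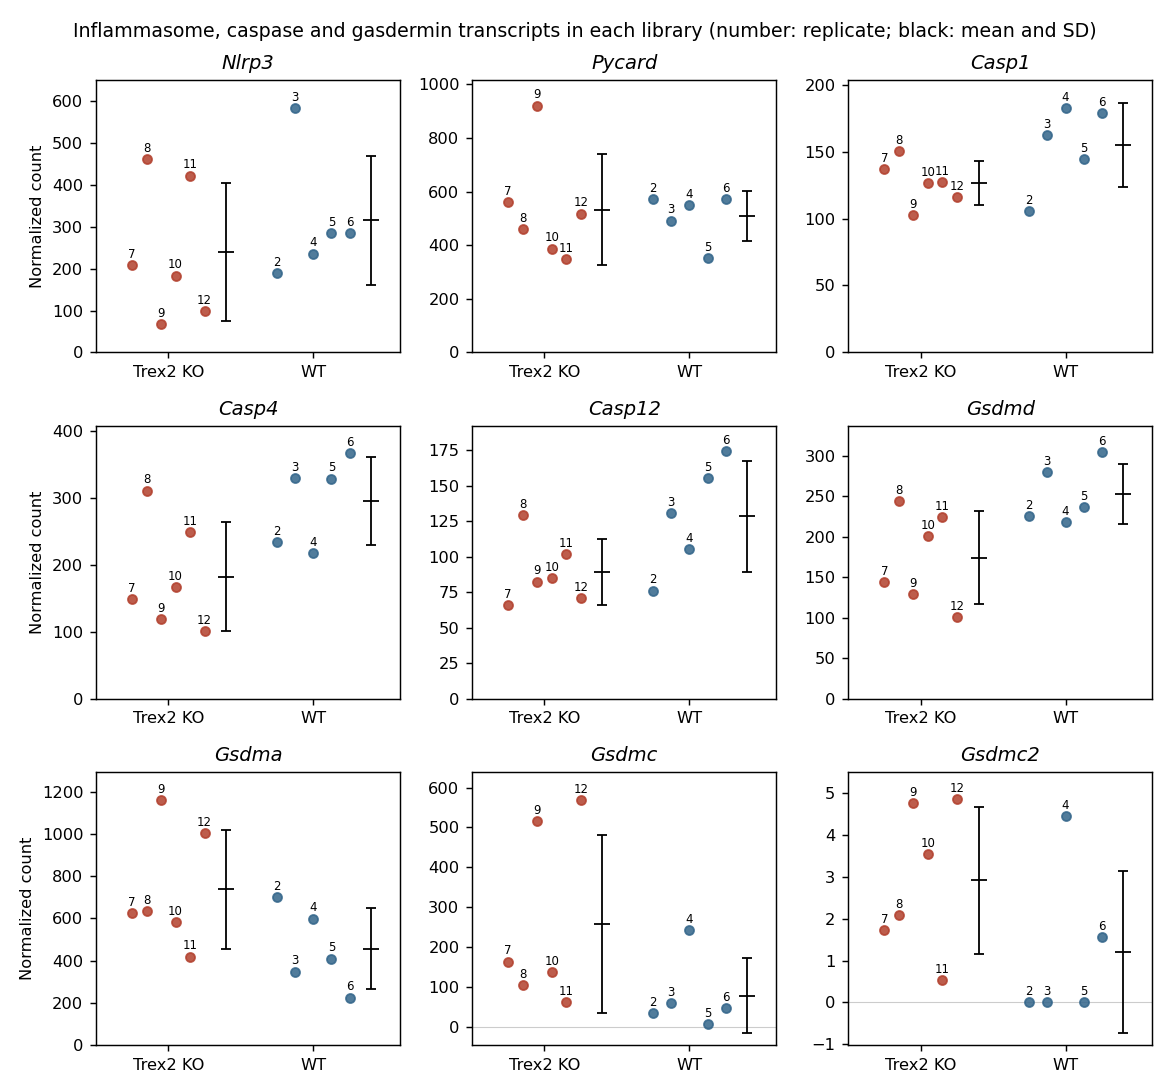
Normalized counts (y axis, linear, a separate scale per panel) of the 9 transcripts in each Trex2 KO library (red, left) and WT library (blue, right), with points numbered by replicate and the mean with its SD in black. Trex2 KO replicates 9 and 12 were the lowest of their group for Nlrp3, Casp4 and Gsdmd and the highest for Gsdma, Gsdmc and Gsdmc2, and no panel separates the genotypes fully.

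Nlrp3, the sensor, lies on chromosome 11 at chr11:59541568-59566956 on the plus strand (ENSMUSG00000032691.14; GRCm38, GENCODE M21, as for all gene positions here). Its level in Trex2 KO skin ran from 68.3 normalized counts in replicate 9 to 461 in replicate 8, with a median of 196. In WT skin it had 189, 582, 236, 285 and 284 in replicates 2 to 6. Trex2 KO libraries thus fell on both sides of the WT values, with 3 of 6 below every WT library and 2 of 6 above 4 of the 5. The means were 240.2 ± 165 and 315 ± 154 (SD, n = 6 Trex2 KO and 5 WT). The log2 fold change of −0.60 (SE 0.46, 95% interval −1.58 to 0.38) did not pass (limma adjusted p = 0.425; exact permutation p = 0.323). Without Trex2 KO replicates 9 and 12 it was 0.01.

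Pycard, which encodes the adaptor ASC, lies at chr7:127989708-127993867 on the minus strand (ENSMUSG00000030793.4). Trex2 KO libraries ranged from 349 to 921 normalized counts with a median of 489, and WT libraries had 572, 492, 550.4, 351 and 571. The 2 ranges nearly coincided apart from Trex2 KO replicate 9, the highest of all 11 libraries. The means of 532 ± 206 and 507 ± 93.1 (SD, n = 6 Trex2 KO and 5 WT) gave a log2 fold change of 0.02 (SE 0.22, limma adjusted p = 0.971; exact permutation p = 0.935). The 95% interval of −0.46 to 0.49 still includes moderate changes in either direction. The unassigned transcript model Gm45205 overlaps Pycard on the opposite strand, and no source used here gives the strand setting of the read counting, which leaves reads of the overlap impossible to assign to 1 of the 2.

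The 3 inflammatory caspase genes stand in a row on the plus strand of chromosome 9. Casp1 (ENSMUSG00000025888.5) occupies chr9:5298517-5307265, Casp4 (ENSMUSG00000033538.13) chr9:5308828-5336783 and Casp12 (ENSMUSG00000025887.10) chr9:5345430-5373032. Only 1562 bases separate Casp1 from Casp4, and 8646 separate Casp4 from Casp12. The 3 genes share no identical 50-base stretch of exon, so an exact read of that length belongs to 1 of them. Because all 3 had lower means in Trex2 KO skin, the 250 bases before their RefSeq starts (GRCm38.p6, plus strand, 5′ to 3′) are shown. Capitals mark matches to 4 motifs searched on both strands with overlaps allowed: an AP-1 motif (TGANTCA), a κB motif (GGG, any 2 bases, then TTTCC), an interferon-stimulated element (GAAA, any 2 bases, then GAAA) and a STAT motif (TTCNNNGAA).
Casp1, chr9:5298267-5298516: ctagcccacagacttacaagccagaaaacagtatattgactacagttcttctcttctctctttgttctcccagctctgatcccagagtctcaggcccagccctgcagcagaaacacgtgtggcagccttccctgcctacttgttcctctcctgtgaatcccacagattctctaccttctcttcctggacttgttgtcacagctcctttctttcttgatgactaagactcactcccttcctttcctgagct
Casp4, chr9:5308599-5308848: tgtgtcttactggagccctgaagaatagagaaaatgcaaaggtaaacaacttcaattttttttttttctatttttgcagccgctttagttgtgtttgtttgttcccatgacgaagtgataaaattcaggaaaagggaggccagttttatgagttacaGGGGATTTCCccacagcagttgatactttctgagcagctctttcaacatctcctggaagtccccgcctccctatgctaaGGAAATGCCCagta
Casp12, chr9:5345226-5345475: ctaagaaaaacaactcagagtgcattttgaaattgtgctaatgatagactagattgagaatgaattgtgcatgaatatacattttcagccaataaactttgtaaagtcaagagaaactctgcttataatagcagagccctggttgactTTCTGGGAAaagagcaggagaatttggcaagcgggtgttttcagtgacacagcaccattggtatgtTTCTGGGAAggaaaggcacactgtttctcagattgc

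The Casp4 window held a pair of κB matches, GGGGATTTCC beginning 93 bases and GGAAATGCCC (the motif on the minus strand) beginning 14 bases before the start. RefSeq lists a second Casp4 start, whose window of chr9:5308610-5308859 holds the same matches. GENCODE begins Casp4 at 5308828, inside both windows, so the match nearer the RefSeq starts lies within the gene as GENCODE annotates it. Windows of this length before 1.41% of 32851 RefSeq starts held the κB motif. The Casp12 window held the STAT letters TTCTGGGAA at 102 and at 36 bases before the start, a motif found in 7.02% of windows. GENCODE begins Casp12 at 5345430, so the match at 36 bases likewise lies within the annotated gene. The AP-1 and interferon-stimulated motifs, in 6.75% and 2.98% of windows, were in none of the 3, and the Casp1 window matched no motif. A match describes letters and is not evidence that a factor binds there. The RefSeq table held such windows for 5 of the 9 members, and those of Nlrp3 and Pycard matched none of the 4 motifs.

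Casp1, the caspase of the canonical inflammasome, was the steadiest member among Trex2 KO libraries. Trex2 KO libraries had 102 to 150.4 normalized counts with a median of 127, and WT libraries had 105, 162, 182, 144 and 179. All 6 Trex2 KO values lay below the WT mean, but WT replicate 2 was lower than 5 of them. Means were 127 ± 16.5 in Trex2 KO and 155 ± 31.5 in WT (SD, n = 6 and 5), with a log2 fold change of −0.27 (SE 0.16, 95% interval −0.62 to 0.08) that did not pass (limma adjusted p = 0.308; exact permutation p = 0.121). The spread was 13.1% of the mean in Trex2 KO, against 20.3% in WT.

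Casp4, the lipopolysaccharide-sensing caspase, had the largest deficit among the tested members. Trex2 KO libraries ran from 100.3 normalized counts in replicate 12 to 310.5 in replicate 8 with a median of 158. WT libraries had 234, 329, 217, 329 and 367. Replicates 7, 9, 10 and 12 of Trex2 KO lay below every WT library, whereas replicates 8 and 11 lay within the WT range. The mean was 182 ± 81.1 in Trex2 KO and 295 ± 65.8 in WT (SD, n = 6 and 5), a ratio of 0.617. The log2 fold change was −0.77 (SE 0.27, 95% interval −1.35 to −0.20; limma adjusted p = 0.126). An exact permutation test of Casp4 alone, two-sided, gave p = 0.0455, where the smallest possible is 0.00216. That test counts neither the other genes nor the choice of members. Without Trex2 KO replicates 9 and 12 the log2 fold change was −0.46.

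Casp12, a relative of caspase-1 and caspase-11 whose own function is less settled, showed a smaller difference. The lowest, median and highest Trex2 KO values were 65.9, 83.7 and 129.6 normalized counts, and the WT values were 76.2, 131, 106, 155 and 174. Replicates 7 and 12 of Trex2 KO were below every WT library, and 5 of 6 were below the WT mean. The log2 fold change was −0.50 (SE 0.23, 95% interval −0.99 to −0.01; limma adjusted p = 0.198), from means of 89.3 ± 23.4 and 128 ± 38.9 (SD, n = 6 Trex2 KO and 5 WT). The exact permutation p of Casp12 alone was 0.0779.

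Gsdmd encodes gasdermin D, the shared substrate of caspase-1 and caspase-11, and lies at chr15:75862327-75867408 on the plus strand (ENSMUSG00000022575.5). Trex2 KO libraries had 100.3 to 244 normalized counts with a median of 172, and WT libraries had 225, 279.8, 218, 236 and 304. All 6 Trex2 KO values were under the WT mean and 4 of 6 were under every WT value. The same libraries were low as for Casp4, and the 2 genes placed the 6 Trex2 KO libraries in 1 order (8, 11, 10, 7, 9, 12 from high to low) although they lie on different chromosomes. Gsdmd averaged 174 ± 57.4 in Trex2 KO and 253 ± 37.6 in WT (SD, n = 6 and 5), and the log2 fold change of −0.59 (SE 0.22, 95% interval −1.06 to −0.13) did not pass (limma adjusted p = 0.139). The exact permutation test of Gsdmd alone gave p = 0.0476, two-sided, and the log2 fold change without Trex2 KO replicates 9 and 12 was −0.33.

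Gsdma, an epithelial gasdermin of skin, leaned the other way. It lies at chr11:98664351-98677708 on the plus strand (ENSMUSG00000017204.4), after its copies Gsdma3 and Gsdma2. Trex2 KO libraries ran from 419 normalized counts in replicate 11 to 1161 in replicate 9, with a median of 629. WT libraries had 700.5, 347, 598, 409 and 224. Replicates 9 and 12 of Trex2 KO exceeded every WT library, replicates 7, 8, 10 and 11 lay within the WT range, and 5 of 6 exceeded the WT mean. Means of 737 ± 283 in Trex2 KO and 456 ± 192 in WT (SD, n = 6 and 5) stood in a ratio of 1.62. The log2 fold change was 0.72 (SE 0.30, 95% interval 0.07 to 1.37; limma adjusted p = 0.174), and it was 0.40 without Trex2 KO replicates 9 and 12. The exact permutation p of Gsdma alone was 0.0779.

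Gsdmc had the largest fold change and the largest spread of the tested members. Its protein is known as a substrate of caspase-8 in human cells. The gene lies at chr15:63775968-63808759 on the minus strand (ENSMUSG00000079025.9). Trex2 KO libraries ran from 62.2 normalized counts in replicate 11 to 567.8 in replicate 12, with replicate 9 at 517 and a median of 150.4. WT libraries had 34.5, 58.7, 242, 6.35 and 45.5. Replicate 4 of WT thus stood above 4 of 6 Trex2 KO libraries, while the other 4 WT libraries lay below all 6. The means were 258 ± 223 in Trex2 KO and 77.5 ± 94.2 in WT (SD, n = 6 and 5), a ratio of 3.34, with a spread of 86.3% of the mean in Trex2 KO and 122% in WT. The log2 fold change of 2.08 (SE 0.76, 95% interval 0.45 to 3.71) did not pass (limma adjusted p = 0.139), and the exact permutation p of Gsdmc alone was 0.0519. Without WT replicate 4 it was 2.69 and passed (limma adjusted p = 0.0435), in a fit that called 5.6% of all genes. Without Trex2 KO replicates 9 and 12 it was 1.31 and did not pass. WT replicate 5 rested on 7 reads of Gsdmc, and the groups summed to 2995 reads in Trex2 KO and 286 in WT. Unlike the ratio of means, these totals are not scaled for depth or for the number of libraries.

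Gsdmc2, the neighbouring copy at chr15:63824346-63845177 on the minus strand (ENSMUSG00000056293.12), was barely detected. It had 0.536 to 4.86 normalized counts in Trex2 KO libraries with a median of 2.81, and 0, 0, 4.45, 0 and 1.57 in WT. All 6 Trex2 KO libraries held at least 1 read, 34 in all, against 5 reads in 2 of 5 WT libraries. The ratio of read rates was 2.20 (95% interval 0.854 to 7.19, covering counting error only), and the exact permutation test of Gsdmc2 alone gave p = 0.0909. The values were highest in Trex2 KO replicates 9 and 12 and in WT replicate 4, the same libraries as for Gsdmc. Of all 50-base windows of their exons, 51.3% for Gsdmc2 and 16.1% for Gsdmc were identical to one in a listed copy, so the counting could have lost or misplaced reads between them. For Gsdma the share of such windows was 8.26%, and for Gsdmd it was 0.

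**Figure D2:**
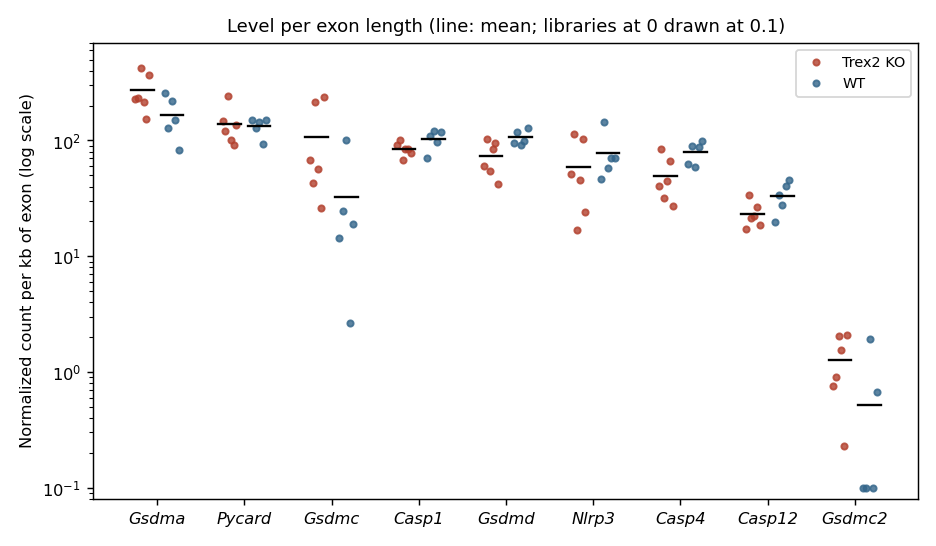
Normalized counts per kb of annotated exon (y axis, log scale) for each gene in Trex2 KO libraries (red) and WT libraries (blue). Exons of all annotated transcripts of a gene were merged, and genes are ordered by the Trex2 KO mean. Gsdma stands at the top with means of 270.4 in Trex2 KO and 167 in WT, and Gsdmc2 at the bottom with 1.26 and 0.520.

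Divided by exon length, Gsdma had the highest mean of the members in both genotypes. The length used merges the exons of all annotated transcripts of a gene, giving 3.8 kb for Pycard and 1.497 kb for Casp1. A gene whose main transcript is shorter than its merged exons is placed too low, so the order across genes depends on the annotation. Gsdma averaged 270.4 ± 104 normalized counts per kb in Trex2 KO skin and 167 ± 70.5 in WT skin (SD, n = 6 and 5, as for the next values). Pycard followed in both, at 140.1 ± 54.2 per kb in Trex2 KO and 133 ± 24.5 in WT. Gsdma lay above Pycard in 6 of 6 Trex2 KO libraries but in only 3 of 5 WT libraries. The middle of the order differed between the genotypes. In Trex2 KO skin the mean placed Gsdmc after Pycard, at 107 ± 92.7 per kb, but it exceeded Casp1 (84.5 ± 11.1) in only 2 of 6 libraries. In WT skin Gsdmc stood eighth, at 32.2 ± 39.2 per kb, next to Casp12 at 33.4 ± 10.1, which exceeded it in 4 of 5 libraries. Gsdmd had 73.1 ± 24.1 per kb in Trex2 KO and 106 ± 15.8 in WT, Nlrp3 59.2 ± 40.6 and 77.7 ± 38.1, and Casp4 49.1 ± 21.9 and 79.6 ± 17.7. Casp12 had 23.2 ± 6.09 per kb in Trex2 KO. Neighbours from Pycard down to Casp4 in the Trex2 KO order did not keep that order in every library. Gsdmd was of the order of Casp1 in both genotypes, and Gsdmc2 stood far below all others.

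The other genes of the pathway were taken as 6 lists of 46 genes in all, of which 35 were high enough to test. None of the 35 passed the adjusted threshold. At an unadjusted p under 0.05 there were 12 of 35, against 24.4% of all genes tested. Of these, 11 were lower in Trex2 KO, against 11.5% of genes, and 1 was higher, against 12.9%. With log10 depth as a covariate the count was 5, against 4.07% of all genes, and without Trex2 KO replicates 9 and 12 it was 6, against 12.5%. The median log2 fold change was −0.23 and 25 of 35 were negative, where 49.0% of all genes tested were negative. DESeq2 called 4 of these genes lower (Irf1, Serpinb1a, Ninj1 and Gbp3), in a fit that called 4.67% of all genes.

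**Figure D3:**
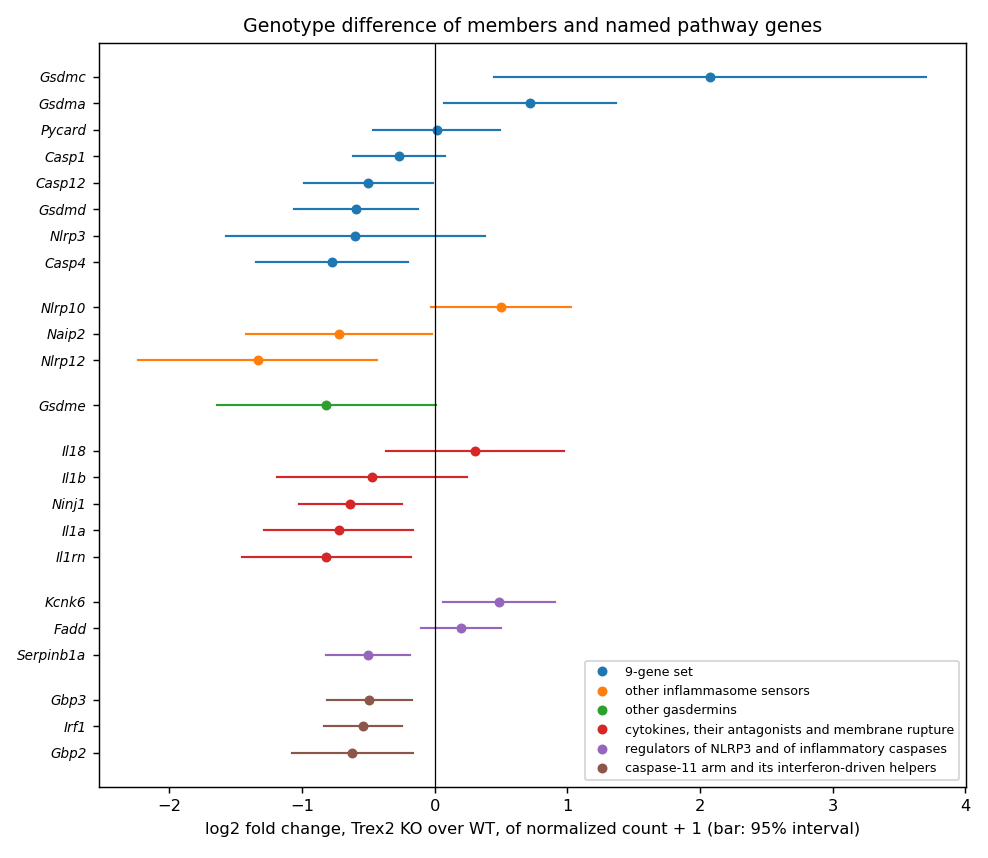
Log2 fold change of normalized count + 1, Trex2 KO over WT (x axis), with its 95% interval from limma, for the 8 tested members and 15 pathway genes named in the text (y axis, coloured by list). Gsdmc lies farthest right at 2.08 and Nlrp12 farthest left at −1.33, and the points of the cytokine and caspase-11 lists lie left of 0 except Il18.

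Of 12 other inflammasome sensors, 8 were tested, none passed, and the median log2 fold change was −0.28. Nlrp12, an NLR family member made in myeloid cells, had 21.5 ± 12.2 normalized counts in Trex2 KO and 54.3 ± 30.5 in WT (SD, n = 6 and 5), a log2 fold change of −1.33 (SE 0.42; limma adjusted p = 0.112). Naip2, which in mice detects a rod protein of bacterial secretion systems, had 80.5 ± 35.5 in Trex2 KO and 128 ± 48.3 in WT (log2 fold change −0.72, SE 0.33, limma adjusted p = 0.195). Nlrp10, an NLR known from the epidermis, had 86.0 ± 22.8 in Trex2 KO and 60.6 ± 16.8 in WT, the opposite lean (log2 fold change 0.50, SE 0.24, limma adjusted p = 0.223). Nlrp1a, Nlrp1b, Naip1 and Nlrp6 were too low to be tested.

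Of 6 other gasdermins only Gsdme, listed under the older symbol Dfna5, was high enough to test. Gsdme, which encodes another pore-forming gasdermin, had 24.0 ± 11.7 normalized counts in Trex2 KO and 37.9 ± 7.09 in WT (SD, n = 6 and 5), a log2 fold change of −0.82 (SE 0.38; limma adjusted p = 0.208), and 5 of 6 Trex2 KO libraries lay below every WT library. Mpp6 overlaps it on the opposite strand. Gsdma3, the copy beside Gsdma, held 82 reads in 5 Trex2 KO libraries and 7 reads in 1 WT library. The ratio of read rates was 3.78 (95% interval 1.76 to 9.70, covering counting error only), and the spread between libraries adds to that. Gsdmc3 had 0 reads in all 11 libraries, and Gsdma2, Gsdmc4 and Pjvk (listed as Dfnb59) had at most 7 reads per genotype.

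All 7 genes for the cytokines, their antagonists and the rupture of the membrane after pore formation were tested, and 6 of 7 had negative log2 fold changes with a median of −0.57. At an unadjusted p under 0.05, 4 of 7 were lower, against 11.5% of all genes. Ninj1, which executes that rupture, had 761 ± 214 normalized counts in Trex2 KO and 1149 ± 104 in WT (SD, n = 6 and 5), a log2 fold change of −0.64 (SE 0.18; limma adjusted p = 0.108). Il1a, an alarmin cytokine, had 419.8 ± 196 in Trex2 KO and 641 ± 87.2 in WT (log2 fold change −0.72, SE 0.26, limma adjusted p = 0.136). Il1rn, the interleukin-1 receptor antagonist, had 857 ± 488 in Trex2 KO and 1360.1 ± 265 in WT (log2 fold change −0.82, SE 0.30, limma adjusted p = 0.138). The agonist and the antagonist thus had lower means alike. The 2 cytokines that caspase-1 matures, named after their values were seen, did not pass. Il1b stood at 2352 ± 1343 in Trex2 KO and 2973 ± 948 in WT (log2 fold change −0.47, limma adjusted p = 0.387). Il18 stood at 105 ± 48.5 in Trex2 KO and 83.3 ± 35.5 in WT (log2 fold change 0.31, limma adjusted p = 0.558).

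The caspase-11 arm, 8 genes of interferon signalling and guanylate-binding proteins, had 7 of 8 negative and a median of −0.33, with 4 of 8 lower at an unadjusted p under 0.05, against 11.5% of all genes. Irf1, an interferon-induced transcription factor, had 119.5 ± 17.1 normalized counts in Trex2 KO and 173 ± 18.2 in WT (SD, n = 6 and 5), a log2 fold change of −0.54 (SE 0.14; limma adjusted p = 0.108; DESeq2 adjusted p = 0.0221). All 6 Trex2 KO libraries were below every WT library, unlike for any member, where 2.32% of all genes tested had no overlap in either direction. Genes named for a small p, such as Irf1, are more likely to separate than members taken by symbol. Gbp3 likewise had 58.5 ± 5.18 in Trex2 KO and 83.2 ± 13.5 in WT without overlap (log2 fold change −0.49, SE 0.15, limma adjusted p = 0.109; DESeq2 adjusted p = 0.0470). Gbp2, a guanylate-binding protein that acts on bacterial membranes, had 198 ± 47.4 in Trex2 KO and 309 ± 98.4 in WT (log2 fold change −0.62, SE 0.21, limma adjusted p = 0.124).

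The 10 regulators of NLRP3 and of inflammatory caspases were balanced, with 5 positive, 5 negative and a median of 0.03. Serpinb1a, a serpin that inhibits neutrophil serine proteases, had 486 ± 59.7 normalized counts in Trex2 KO and 697 ± 159 in WT, again without overlap (SD, n = 6 and 5) and with a log2 fold change of −0.50 (SE 0.15; limma adjusted p = 0.108). Kcnk6, a potassium channel upstream of NLRP3 in mouse macrophages, had 272 ± 55.6 in Trex2 KO and 197 ± 60.6 in WT (log2 fold change 0.49, SE 0.20, limma adjusted p = 0.162). Fadd, a death-domain adaptor of caspase-8, stood at 0.20 (SE 0.14, limma adjusted p = 0.395). Among 3 other proteases that cleave gasdermins, Elane and Ctsg were too low to be tested.

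Cell type markers differed alongside both leans. Of 12 tested neutrophil markers 12 had negative log2 fold changes, where 49.0% of all genes tested did, with a median of −1.20. At an unadjusted p under 0.05 there were 11, against 11.5% of all genes lower, and none passed the adjusted threshold. Their summed level was 17145 to 88478 normalized counts in Trex2 KO (median 41255) and 49060 to 120804 in WT (median 104715). S100a8 and S100a9 made up most of these sums, with means of 15342 and 17986 in Trex2 KO and 31143 and 35346 in WT. The sums therefore need not follow the other markers. Trex2 KO replicate 9 had a higher sum than replicate 10 (39924 and 33961). Its mean log2 value over the markers, each centred on its mean of 11 libraries, was lower (−1.26 and −0.37). Trex2 KO replicates 8 and 11, the highest for Casp4, Gsdmd and Nlrp3, also had the highest neutrophil sums of that genotype. The same 2 libraries had its highest sums of monocyte and macrophage markers (24644 and 23829) and of endothelium markers (1927 and 2084). The fibroblast sum was instead highest in Trex2 KO replicate 10 (57712). Of 10 tested monocyte and macrophage markers, 7 were negative, and their sums were 12629 to 24644 in Trex2 KO and 18177 to 27655 in WT. The part of either cell type in the lower values of Casp4, Casp12 and Gsdmd was not tested.

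All 9 differentiated keratinocyte markers had positive log2 fold changes, with a median of 1.57. At an unadjusted p under 0.05 there were 6, against 12.9% of all genes higher, and none passed the adjusted threshold. Their sums were 9600 to 48317 in Trex2 KO (median 18314) and 6024 to 23211 in WT (median 9323). The highest sums belonged to Trex2 KO replicates 9 (48317) and 12 (34153) and, within WT, to replicate 4 (23211), the same libraries that were highest for Gsdmc. This was not particular to that list. Sums of the hair follicle markers, 3 of 7 of them tested, were highest in the same libraries (183, 204 and 141), and so were those of the basal keratinocyte markers. All 6 basal keratinocyte markers were positive as well, with a median of 0.87 and sums of 58603 to 179466 in Trex2 KO and 37315 to 92138 in WT. No marker of any of these lists was at 0 in every library, and the part of keratinocyte content in the higher values of Gsdma and Gsdmc was not tested. With log10 depth as a covariate 0 of 8 members had an unadjusted p under 0.05, where 4.07% of all genes did. Without Trex2 KO replicates 9 and 12 it was also 0 of 8, where 12.5% did. Depth ran higher in Trex2 KO, and those 2 libraries were extreme for several members, so neither count tests a cause.

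**Figure D4:**
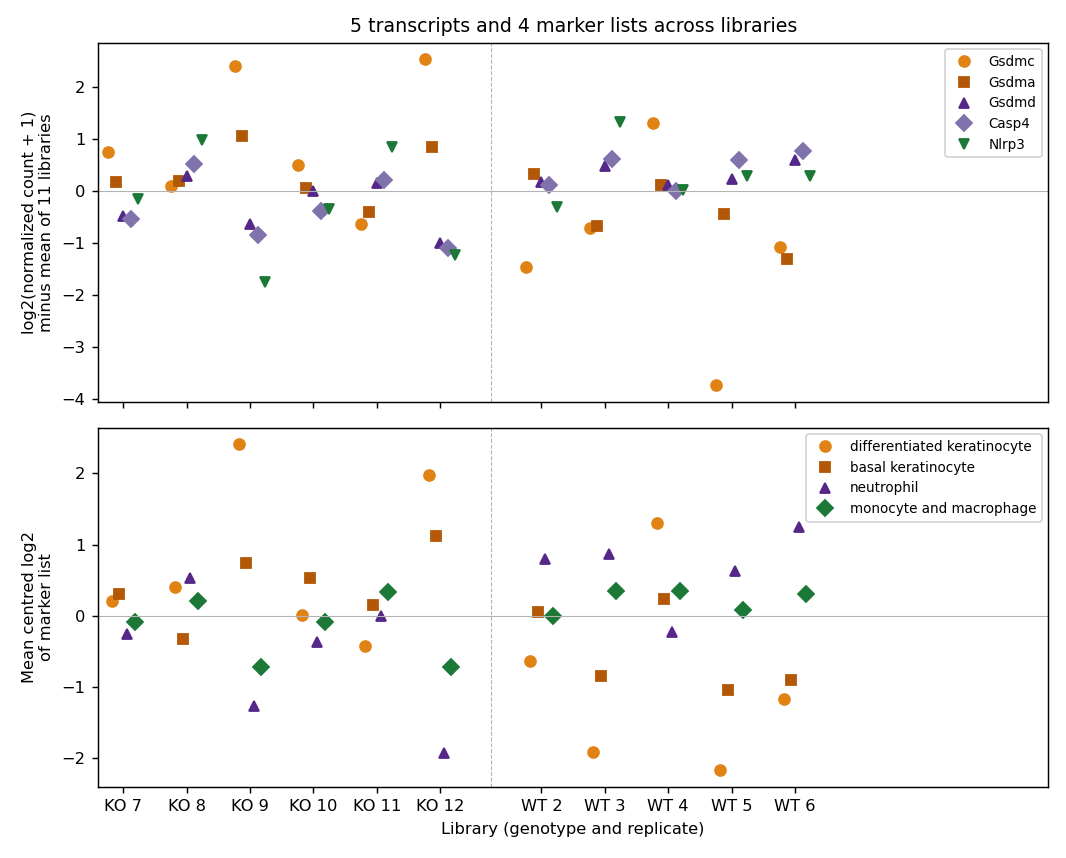
Upper plot, log2(normalized count + 1) of 5 transcripts in each library minus the mean over the 11 libraries (y axis). Lower plot, the mean of such centred values over all listed markers of 4 cell types found in the data, tested or not. Trex2 KO libraries are on the left and WT libraries on the right. Gsdmc and the differentiated keratinocyte markers are highest in Trex2 KO replicates 9 and 12 and in WT replicate 4, and the neutrophil markers are lowest in Trex2 KO replicates 12 (−1.93) and 9 (−1.26).

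The genes most like each member over the 11 libraries, by Pearson's r of log2(normalized count + 1) among 9934 genes with a mean of at least 50, differed from member to member. For Casp1 they were Stx7 (r = 0.96), Lamp1 (0.94) and Mylip (0.92). For Casp4 they were Sp140 (0.99), Plscr1 (0.98) and Hsd17b11 (0.97), and for Casp12 Mat2b (0.94), Cyb5r4 (0.94) and Ppic (0.92). The 3 neighbours on chromosome 9 had no such gene in common, but the top 3 of 9934 genes are too few to compare them by. Between the neighbours r was 0.86 for Casp4 and Casp12, 0.70 for Casp1 and Casp12 and 0.64 for Casp1 and Casp4. Nlrp3 was followed by Tnfaip3 (0.97), Osm (0.97) and Sgms2 (0.96), and Pycard by Gpx1 (0.97), Ebp (0.95) and Mrpl36 (0.95). Gsdmd was followed by Fes (0.98) and Plcl2 (0.98). The gasdermins of epithelia had other companions, Tmprss13 (0.96), Nrbp2 (0.96) and Rnf208 (0.95) for Gsdma and Dis3l (0.98), Sgpp2 (0.98) and Map2 (0.97) for Gsdmc. These values describe likeness only, since the libraries share 2 genotypes, their depth and their cell content, and they were picked as the highest of many.

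**Figure D5:**
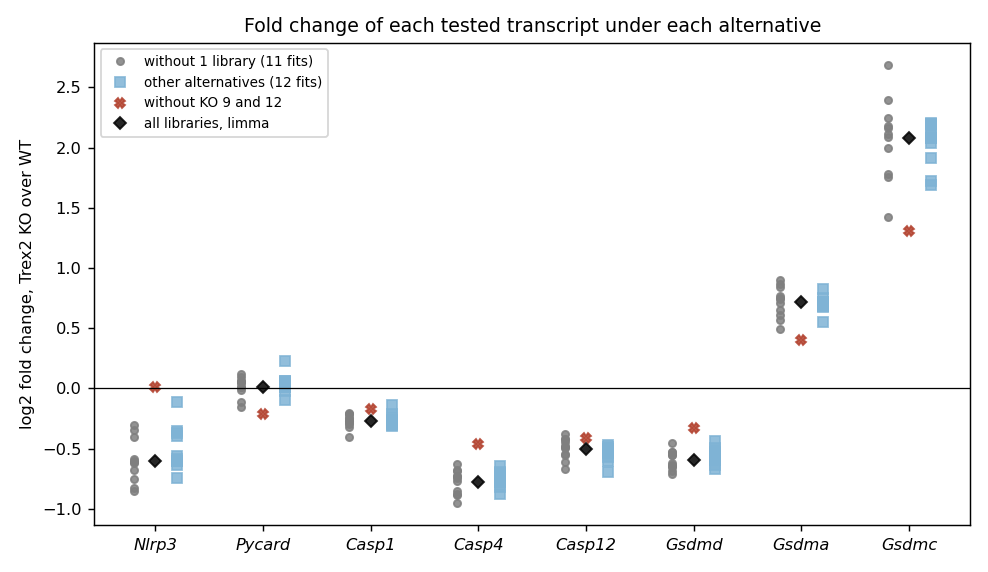
Log2 fold change of each tested member, Trex2 KO over WT (y axis), from limma with all libraries (black), without 1 library (grey), under 12 other alternatives (blue) and without Trex2 KO replicates 9 and 12 (red crosses). Casp1, Casp4, Casp12 and Gsdmd stayed below 0 and Gsdma and Gsdmc above 0 throughout, while Pycard changed sign and Nlrp3 reached 0.01 without those 2 libraries.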

How the data were processed

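mRNA of pulverized back skin was sequenced from 6 Trex2 KO and 5 WT mice. The authors deposited 1 table of normalized signal, counts divided by a size factor per library. The submitters' processing notes name TopHat2 2.0.8, featureCounts 1.4.6, DESeq2 1.8.1 and GRCm38. No source used here gives their order or the strand setting. All values (100%) were whole multiples of 1 read within 0.01, so reads were recovered for edgeR 4.0.16 and DESeq2 1.42.0. Every pair of libraries differed by more than counting noise (chi-square per degree of freedom at least 4.74). Genotypes were compared with limma 3.58.1 (R 4.3.3), variances moderated along the mean, on log2(normalized count + 1), keeping genes whose mean reached 10, with Benjamini-Hochberg adjustment. This scale understates changes of low genes. Single members were also compared by exact permutation (two-sided). The scripts were tested on simulated data with 200 changed genes among 13215. There limma called 8 unchanged genes, edgeR 11 and DESeq2 26, so calls by DESeq2 alone are to be read with the most caution. Of log2 changes of 1, limma recovered 64%, edgeR 66% and DESeq2 77%, so a true change of that size can fail to pass. The simulation drew each gene independently, whereas genes of whole skin share its cell content, so these rates need not hold here. The members, the gene lists and the tests were chosen with earlier results of these data known, so no count over a list is independent evidence. Named were all members, Trex2, up to 3 genes of smallest p per pathway list and 3 most like each member; exceptions are stated, and some genes the rule takes are omitted. Positions and exon lengths come from GENCODE M21, upstream sequences from RefSeq.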

Additional observations from a re-analysis of the deposited data

Results flagged for a closer look

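Among 18 groups of member values compared with Dixon's 95% critical value, 3 had a library far from the rest of its group. Chance gives about 1 in 20 only for normally distributed values, and these were untransformed normalized counts. The number of flags therefore cannot be set against that rate. Flags on the log2 scale of the other tests were not computed. Gsdmc in WT replicate 4 was 242 normalized counts, with a gap to the next WT library of 0.778 of the group's range (critical value 0.710). Nlrp3 in WT replicate 3, the shallowest library, was 582 normalized counts, with a gap of 0.755 of the range (critical value 0.710). Pycard in Trex2 KO replicate 9 was 921 normalized counts, with a gap of 0.630 of the range (critical value 0.625).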

How the results depend on the processing

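Casp1, Casp4, Casp12, Gsdmd, Gsdma and Gsdmc kept their sign under all 24 alternatives (pseudocounts of 0.5 and 5, no minimum or a minimum of 50, TMM and upper quartile scaling, edgeR, DESeq2, robust moderation, array weights, reads thinned to 1208896 a library, log10 depth as a covariate, no Trex2 KO replicates 9 and 12, and each library left out). Pycard was −0.024 with upper quartile scaling, −0.093 with array weights, −0.21 without Trex2 KO replicates 9 and 12, and −0.16 to 0.12 with 1 library left out. Nlrp3 was 0.011 without Trex2 KO replicates 9 and 12. The cause was not tested. Gsdmc was 1.43 to 2.69 with 1 library left out, and only without WT replicate 4 did it pass. Its adjusted p over the alternatives ran from 0.0435 to 0.892. The number of genes called was 2, against 4 with edgeR, 617 with DESeq2, 6 with array weights and 2 to 740 with 1 library left out, the 740 without WT replicate 4. The members called were 0 to 1, and the pathway genes called were 4 with DESeq2 and 0 to 1 (Serpinb1a, without WT replicate 4) with 1 library left out. Members at an unadjusted p under 0.05 were 5 of 8 with all libraries, against 24.4% of all genes. They were 3 of 8 without Trex2 KO replicate 9 (21.3% of all genes), Trex2 KO replicate 12 (15.8%), WT replicate 3 (18.1%), WT replicate 5 (20.97%) or WT replicate 6 (18.4%). By exact permutation 2 of 9 members had p under 0.05, 0 without Trex2 KO replicates 9 and 12, and 0 to 4 with 1 library left out. That test was run on the members and Trex2 only, so no share over all genes stands beside these counts. No paired analysis was possible because the genotypes share no replicate number. Depth limits Gsdmc2 and the other gasdermin copies, as 3 reads are worth up to 13.5 normalized counts in WT replicate 3.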
